A study of Mus musculus with 4 samples.

Results

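The genes described here are 9 of the fibroblast growth factor (FGF) system in mouse back skin: the ligands Fgf5, Fgf7, Fgf10, Fgf18 and Fgf22, the receptors Fgfr1, Fgfr2 and Fgfr3, and the FGF carrier protein Fgfbp1. All probe sets of the array that the platform annotation assigns to 1 of these symbols alone were taken, which gave 17 of 45101 probe sets. Expression was measured on Affymetrix arrays in skin of K5-IKKbeta transgenic mice (n = 2 arrays) and of wild type mice (n = 2 arrays), which the labels also call control. The transgenic mice express IKKbeta, the kinase that activates NF-kB, from regulatory elements of keratin K5, which direct expression to basal keratinocytes of the epidermis and of the outer root sheath of the hair follicle. Mice of both groups were males of 32 days from a C57BL6 X DBA2 background, and no agent was given according to the labels. Each array carried RNA pooled from 3 animals, and replicate error here is therefore error between pools, with individual mice unresolved. How many founder lines were used is not given in the sources used here. Arrays were made from whole skin, in which fewer cells of a type and less RNA per cell cannot be told apart.

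FGFs are secreted proteins that bind receptor tyrosine kinases on nearby cells together with heparan sulfate, and the activated receptors signal mainly through Ras and the MAP kinases. In the hair follicle Fgf5 is the best known member: it ends the growth phase of the hair cycle, and mice without it grow long hair. Fgf7, Fgf10 and Fgf22 belong to 1 subfamily of ligands for the epithelial splice form of Fgfr2. Fgf7 and Fgf10 are made by mesenchymal cells such as those of the dermal papilla, Fgf22 is made by epithelial cells of the follicle, and Fgf18 is made in the resting follicle and holds it at rest. Fgfr1 is found mainly in mesenchymal cells and Fgfr2 and Fgfr3 mainly in keratinocytes of the skin, while Fgfbp1 releases FGFs from the extracellular matrix.

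Promoter sequences are shown for the member with the greatest fitted fall, the member with the greatest fitted rise and a further changed ligand and receptor, because the members moved in opposite directions. They come from the RefSeq promoter windows of GRCm38.p6, which held 9 windows for 8 of the 9 genes and none for Fgfr1. The 250 bases before the annotated gene start are printed 5′ to 3′, and capitals mark matches to a loose form of the sequence bound by NF-kB, GGG and CC with any 5 bases between them, on either strand.
Fgf5, chr5:98253934-98254183, + strand: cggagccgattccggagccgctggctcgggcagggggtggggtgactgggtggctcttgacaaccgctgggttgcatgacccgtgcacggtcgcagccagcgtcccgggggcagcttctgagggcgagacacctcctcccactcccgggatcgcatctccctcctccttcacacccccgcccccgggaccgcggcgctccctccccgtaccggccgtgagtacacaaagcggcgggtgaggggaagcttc
Fgf22, chr10:79754859-79755108, + strand: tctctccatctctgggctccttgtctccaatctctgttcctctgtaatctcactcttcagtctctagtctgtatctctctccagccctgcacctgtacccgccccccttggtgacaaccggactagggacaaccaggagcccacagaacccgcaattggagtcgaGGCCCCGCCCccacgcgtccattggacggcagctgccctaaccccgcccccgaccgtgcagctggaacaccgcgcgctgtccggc
Fgfr2, chr7:130266809-130267058, - strand: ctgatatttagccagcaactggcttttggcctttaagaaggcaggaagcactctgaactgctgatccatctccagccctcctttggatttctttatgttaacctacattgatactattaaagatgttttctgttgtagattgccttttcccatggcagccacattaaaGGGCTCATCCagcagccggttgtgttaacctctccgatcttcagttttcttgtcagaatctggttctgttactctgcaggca
Fgfbp1, chr5:43981800-43982049, - strand: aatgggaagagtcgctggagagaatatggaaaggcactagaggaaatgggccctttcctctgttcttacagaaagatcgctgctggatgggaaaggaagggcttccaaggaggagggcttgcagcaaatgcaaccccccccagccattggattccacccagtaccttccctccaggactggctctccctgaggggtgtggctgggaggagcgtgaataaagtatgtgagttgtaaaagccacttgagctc
The Fgf22 and Fgfr2 windows held 1 match each, and these letters were not in the Fgf5 and Fgfbp1 windows. Over all members 6 of 9 windows held a match, against 45.8% of the 32851 windows in the table. A match is a string of letters and not a measured binding site.

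Values are log2 RMA expression throughout, and differences are K5-IKKbeta minus wild type on the log2 scale. Pearson's correlation across all probe sets, which are not independent replicates, was 0.994 for the K5-IKKbeta arrays and 0.996 for the wild type arrays, and across genotypes it was 0.965 to 0.969. Array medians were 6.96 and 6.95 in K5-IKKbeta skin and 6.92 and 6.91 in wild type skin. The keratinocyte keratin Krt5 measured 13.68 and 13.43 in K5-IKKbeta pools, against 13.13 and 13.00 in wild type pools. Probe set 1454184_a_at of Ikbkb, the gene of the transgene, read 8.77 and 8.74 in K5-IKKbeta pools, against 6.50 and 6.54 in wild type pools, and of the other 4 Ikbkb probe sets 2 were called higher and 2 did not pass the threshold. Where these probe sets lie relative to the sequence in the transgene was not analysed here.

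K5-IKKbeta skin had less RNA of the ligands Fgf5 and Fgf22 and more RNA of Fgfr1, Fgfr2 and the carrier Fgfbp1. Of the 17 probe sets 8 passed the threshold (limma with Benjamini-Hochberg adjustment over all 45101 probe sets, adjusted p below 0.05), which is 47.1% against 16.3% of all probe sets. The 5 that rose are 29.4% of the 17, against 10.4% of all probe sets called higher. The 3 that fell are 17.6% of the 17, against 5.88% of all probe sets called lower. Arrays of both groups did not overlap for 14 of the 17, against 56.1% of all probe sets. The median difference of the 17 was -0.02, beside 0.00 over all probe sets. Probe sets of a gene read the same RNA and are not independent of each other.

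**Figure D1:**
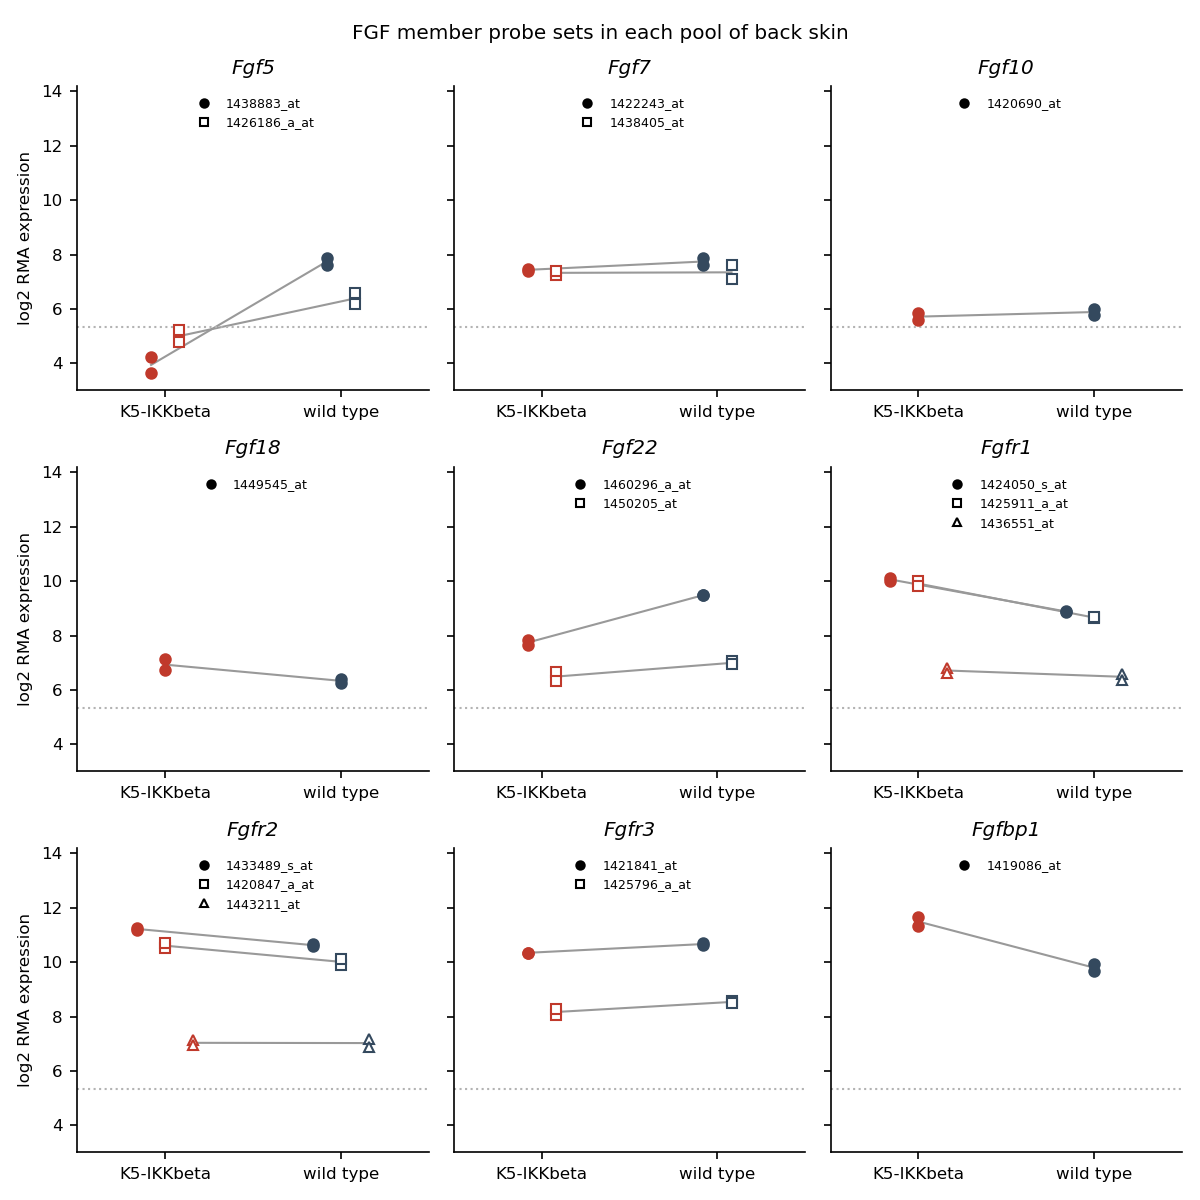
Log2 RMA expression of the 17 FGF member probe sets (y axis), with 1 panel per gene and 1 point per pool; K5-IKKbeta pools are red on the left of each panel and wild type pools dark on the right, marker shapes are probe sets, lines join group means, and the dotted line is the mean over arrays of each array's 25th percentile. Only the Fgf5 probe sets lie below that line in both K5-IKKbeta pools, and Fgfbp1 is at 11.65 and 11.34 in K5-IKKbeta pools, against 9.67 and 9.92 in wild type pools.

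**Figure D2:**
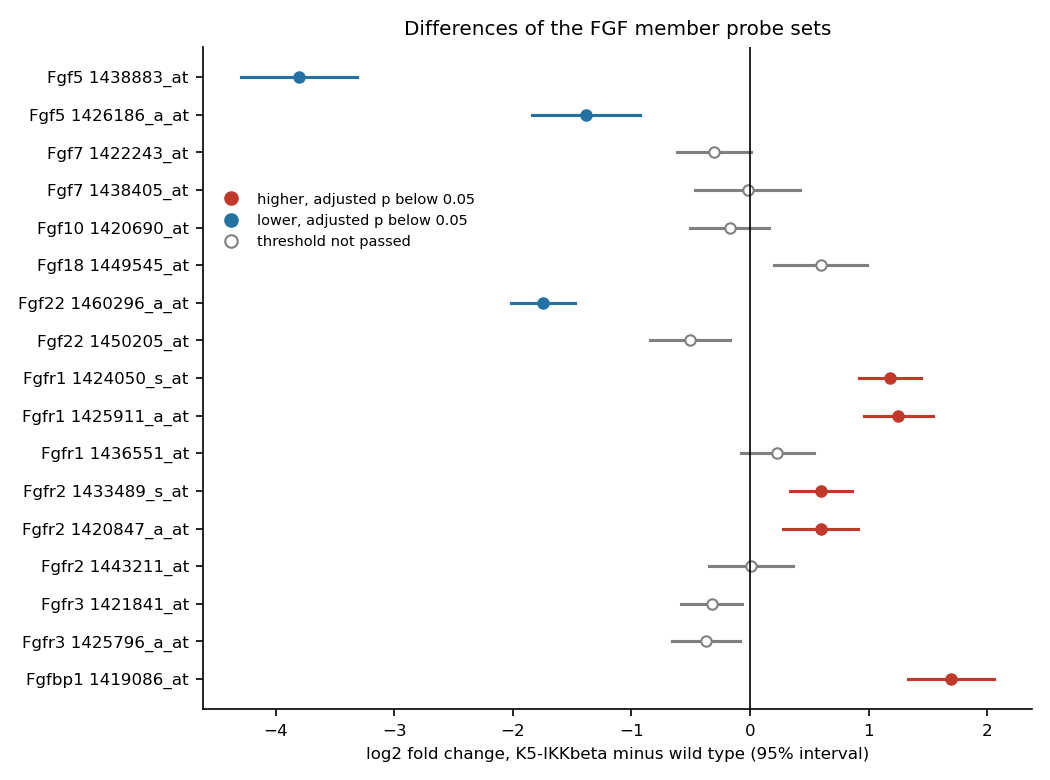
Log2 fold change of each FGF member probe set (x axis, K5-IKKbeta minus wild type) with its 95% interval from limma; filled points passed the adjusted threshold over all probe sets. Fgf5 at -3.80, fitted on transgenic values below the floor, and Fgfbp1 at 1.70 are the ends of the range.

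Fgf5, the ligand that ends hair growth, fell in both of its probe sets. Probe set 1438883_at read 4.23 and 3.65 in the K5-IKKbeta pools, against 7.87 and 7.62 in the wild type pools. Both transgenic pools lay far below both wild type pools, at the 11.1 and 5.98 percentiles of their arrays, against the 65.3 and 60.8 percentiles in wild type. Both transgenic pools were below the 25th percentile of their arrays, which is taken here as a floor in the absence of detection calls, and the fold is therefore a bound: Fgf5 was at least 5.39-fold lower. The fit itself gave -3.80 (SE 0.20, limma adjusted p = 0.000141), a size that rests on values below the floor. The second Fgf5 probe set, 1426186_a_at, read 5.21 and 4.79 in K5-IKKbeta pools, against 6.58 and 6.19 in wild type pools. It too was below the floor in both transgenic pools, with a fold of at least 2.10 (fitted at -1.39, SE 0.19, adjusted p = 0.00464). Both probe sets also passed with each of the 4 arrays left out in turn. Every such fit, here and below, leaves a genotype with 1 array, which is assumed to vary like the other genotype's, and has 1 residual degree of freedom per feature, so it shows which calls hang on an array and is no independent support.

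Fgf22, the epithelial ligand of Fgfr2, fell in its brighter probe set. Probe set 1460296_a_at read 7.82 and 7.66 in K5-IKKbeta pools, against 9.50 and 9.47 in wild type pools. The pools of a genotype differed by at most 0.16, far less than the genotypes did, and the difference was -1.75 (SE 0.11, limma adjusted p = 0.000275), a 3.36-fold lower level. The dimmer probe set 1450205_at read 6.65 and 6.33 in K5-IKKbeta pools, against 7.05 and 6.94 in wild type pools. The groups did not overlap here either, but the difference of -0.51 (95% interval -0.84 to -0.17) did not pass (adjusted p = 0.0563); it passed without K5-IKKbeta 1 (-0.66, adjusted p = 0.022). The brighter probe set has the _a_at ending of probe sets shared by several transcripts, and with shared probe sets left out Fgf22 stood at -0.51 in place of -1.75 (adjusted p = 0.029 among tested genes). The 3 tested genes whose 4 array values lay closest to those of Fgf22, each gene centred on its own mean, were Cadm4, a cell adhesion molecule, at a Euclidean distance of 0.07, Pgm2, at 0.08, and Gpx2, a glutathione peroxidase, at 0.12. The median distance over 13073 genes was 1.85, and with 4 arrays this likeness is mostly that of the difference between genotypes.

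The mesenchymal ligands Fgf7 and Fgf10 did not pass the threshold. Probe set 1422243_at of Fgf7, the keratinocyte growth factor, read 7.40 and 7.47 in K5-IKKbeta pools, against 7.61 and 7.88 in wild type pools. Both transgenic pools were below both wild type pools, with a difference of -0.31 (95% interval -0.62 to 0.0049, limma adjusted p = 0.18). Its other probe set, 1438405_at, read 7.26 and 7.39 in K5-IKKbeta pools, against 7.08 and 7.61 in wild type pools, so the groups overlapped (-0.02, 95% interval -0.46 to 0.42, adjusted p = 0.97). Fgf10, which limb and lung buds need to form, read 5.58 and 5.85 in K5-IKKbeta pools, against 5.79 and 5.98 in wild type pools. These values overlap and lie between the 28.1 and 34.9 percentiles of their arrays, near the floor (-0.17, 95% interval -0.50 to 0.16, adjusted p = 0.49). The intervals hold moderate falls of both genes, so equal levels were not shown.

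Fgf18, the ligand of the resting follicle, was the ligand with higher values in transgenic skin. It read 7.14 and 6.71 in K5-IKKbeta pools, against 6.40 and 6.26 in wild type pools. Both transgenic pools were above both wild type pools, and the gap between the transgenic pools, 0.43, was large beside the difference of 0.60 (SE 0.16). Over all probe sets this did not pass (limma adjusted p = 0.0552). Among the 13074 genes tested with 1 probe set each it passed (adjusted p = 0.0325), a 1.51-fold rise. Leaving out either wild type array ended that call (a difference of 0.67 with adjusted p = 0.095 for the first, and of 0.53 with adjusted p = 0.16 for the second). The size hung on the transgenic arrays, with 0.38 in the absence of K5-IKKbeta 1 and 0.81 in the absence of K5-IKKbeta 2.

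Among the receptors, Fgfr1 rose most. Probe set 1424050_s_at read 10.12 and 10.01 in K5-IKKbeta pools, against 8.86 and 8.90 in wild type pools. Probe set 1425911_a_at read 10.02 and 9.80 in K5-IKKbeta pools, against 8.65 and 8.67 in wild type pools. The groups were far apart in both, with differences of 1.18 (SE 0.11, limma adjusted p = 0.00109) and 1.25 (SE 0.12, adjusted p = 0.00126), which are rises of 2.27-fold and 2.38-fold. The third Fgfr1 probe set, 1436551_at, read 6.79 and 6.63 in K5-IKKbeta pools, against 6.59 and 6.37 in wild type pools, and did not pass (0.23, 95% interval -0.08 to 0.54, adjusted p = 0.30). Its upper bound is below the lower bounds of the other 2 probe sets, 0.92 and 0.96. Which transcripts each probe set reads was not analysed here. The _s_at and _a_at endings mark probe sets that several transcripts share, and with such probe sets left out Fgfr1 was not called (adjusted p = 0.20).

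Fgfr2, the keratinocyte receptor of Fgf7, Fgf10 and Fgf22, rose 1.51-fold in each of 2 probe sets. Probe set 1433489_s_at read 11.26 and 11.19 in K5-IKKbeta pools, against 10.67 and 10.58 in wild type pools, and probe set 1420847_a_at read 10.50 and 10.71 in K5-IKKbeta pools, against 9.91 and 10.11 in wild type pools. Both transgenic pools exceeded both wild type pools, with a difference of 0.60 in each (SE 0.11 and 0.13, limma adjusted p = 0.0134 and 0.0266). The third probe set, 1443211_at, read 7.13 and 6.93 in K5-IKKbeta pools, against 7.18 and 6.86 in wild type pools, and these overlap (0.01, 95% interval -0.34 to 0.36, adjusted p = 0.98). Leaving out wild type 1 (adjusted p = 0.091) or wild type 2 (0.13) ended the call of 1433489_s_at. That of 1420847_a_at was lost without wild type 1 (0.20), without wild type 2 (0.098) and without K5-IKKbeta 2 (0.073).

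Fgfr3, another receptor of keratinocytes, had lower values in transgenic skin in both probe sets. Probe set 1421841_at read 10.34 and 10.34 in K5-IKKbeta pools, against 10.72 and 10.62 in wild type pools, and probe set 1425796_a_at read 8.07 and 8.26 in K5-IKKbeta pools, against 8.57 and 8.50 in wild type pools. The groups did not overlap in either, but the differences of -0.32 and -0.37 did not pass over all probe sets (limma adjusted p = 0.098 and 0.0901). Among tested genes Fgfr3 passed with a 1.25-fold fall (adjusted p = 0.044), a call that was lost with any of the 4 arrays left out (adjusted p = 0.0759 without K5-IKKbeta 2, 0.0798 without K5-IKKbeta 1, 0.137 without wild type 2 and 0.248 without wild type 1).

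Fgfbp1, the secreted carrier that frees FGFs from heparan sulfate, rose 3.24-fold. It read 11.65 and 11.34 in K5-IKKbeta pools, against 9.67 and 9.92 in wild type pools. The difference of 1.70 (SE 0.15, limma adjusted p = 0.000962) was at the 99.2 percentile of all probe sets, and with each array left out it was 1.54 to 1.85 and passed. The 3 tested genes closest to it over the 4 arrays were Slc7a2, a transporter of cationic amino acids, at a distance of 0.10, Coch, which encodes cochlin, at 0.11, and Ptprg, a receptor tyrosine phosphatase, at 0.13, against a median distance of 1.64.

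With 1 probe set per gene, the one with the highest mean, 7 of the 9 members were above the filter on dim genes, the 40th percentile of probe set means (6.33). Fgf5 (5.84) and Fgf10 (5.80) were below it, Fgf5 through its low values in transgenic skin, and the nearest member above it was Fgf18 (6.63). The Fgf18 mean was 6.93 in K5-IKKbeta skin and 6.332 in wild type skin, the latter barely above the filter of 6.328. Of the 7, Fgf18, Fgfr1, Fgfr2 and Fgfbp1 were called higher and Fgf22 and Fgfr3 lower. Among all 13074 tested genes 33.9% were called, 23.4% higher and 10.6% lower.

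Other FGF family genes were mostly dim. The remaining ligands, Fgfr4, Fgfrl1, Fgfbp3 and the klotho coreceptors make 22 genes with 45 probe sets, of which 23 lay below the floor on all 4 arrays. Of the 9 that were tested 3 were called higher and 1 lower, with a median difference of 0.03 beside 0.09 over all tested genes. That is 33.3% higher and 11.1% lower, beside 23.4% and 10.6% of all tested genes. Over all probe sets 5 of the 45 were called higher and 0 lower by limma. Of all probe sets on the array 10.4% were called higher and 5.88% lower, so the count of higher calls is near the share over the array. Fgfr4, the remaining FGF receptor kinase, gave conflicting values: 1418596_at read 7.45 and 7.63 in K5-IKKbeta pools, against 6.67 and 6.66 in wild type pools (0.88, adjusted p = 0.00395), while the brighter 1427846_x_at differed by 0.01 (adjusted p = 0.98). The other Fgfr4 probe sets, 1427777_x_at (-0.01), 1427845_at (-0.14) and 1427776_a_at (0.40), were not called over all probe sets. Of these, 1427845_at and 1427776_a_at lay below the floor on all 4 arrays. Fgfr4 was named after its values were seen. Fgf13, an intracellular relative of the FGFs that binds sodium channels, read 8.97 and 9.21 in K5-IKKbeta pools, against 8.13 and 8.12 in wild type pools (0.96, limma adjusted p = 0.00168). Fgf11, of the same intracellular group, rose by 0.63 in 1439959_at (limma adjusted p = 0.0126), a call lost without wild type 1. Its other probe set, 1421793_at, gave 0.21 with overlapping groups (limma adjusted p = 0.50 over all probe sets). Klb, a coreceptor of endocrine FGFs, rose by 0.51 in 1449568_at (limma adjusted p = 0.0128), a call lost without either wild type array. Its other probe set, 1426075_at, lay below the floor on all 4 arrays (0.16, limma adjusted p = 0.41 over all probe sets). Fgfbp3, another carrier, fell by 0.56 on the log2 scale among tested genes (limma adjusted p = 0.033, 0.0573 over all probe sets). That call was lost without K5-IKKbeta 1 and without wild type 1, and without wild type 2 the gene was below the filter on dim genes. The Fgfbp3 mean lay above the filter of 6.33 only in wild type skin (6.76, against 6.20), and that of Klb only in K5-IKKbeta skin (6.74, against 6.23). Both were thus tested through the group in which they are higher. The Fgf11 mean in wild type skin, 6.334, was barely above the filter.

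Among feedback inhibitors and transcriptional targets of FGF signalling, 2 of 11 tested genes were called lower and 0 higher by limma (4 and 1 at an unadjusted p under 0.05), with a median difference of -0.01. That is 18.2% lower, beside 10.6% of all tested genes, and 0% higher, beside 23.4%. Dusp5, a nuclear phosphatase of the ERK kinases, read 8.28 and 8.05 in K5-IKKbeta pools, against 9.62 and 9.67 in wild type pools. It fell 2.79-fold (-1.48, adjusted p = 0.000375). Dusp6, the cytoplasmic ERK phosphatase, read 9.38 and 9.81 in K5-IKKbeta pools, against 10.14 and 10.45 in wild type pools (-0.70, adjusted p = 0.0267, or 0.15 when wild type 2 was left out). The sprouty and spred inhibitors were among the 9 not called, as were Etv4 and Etv5, transcription factors induced by FGFs.

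Among adaptors and kinases downstream of the receptors, 1 of 12 tested genes was called higher and 4 lower (median 0.01). These are 8.33% higher, beside 23.4% of all tested genes, and 33.3% lower, beside 10.6%. Braf, a kinase that activates the MAP kinase cascade, read 9.49 and 9.65 in K5-IKKbeta pools, against 10.59 and 10.67 in wild type pools, a 2.08-fold fall (limma adjusted p = 0.000909). The phosphatase Ptpn11 fell by 0.48 on the log2 scale (adjusted p = 0.0114), the docking protein Gab1 by 0.39 (adjusted p = 0.0346) and the GTPase Nras by 0.35 (adjusted p = 0.0487). Nras was named after its value was seen. The adaptor Shc1 rose by 0.48 (adjusted p = 0.0128). The calls of Ptpn11, Gab1, Nras and Shc1 were lost without either wild type array (highest adjusted p = 0.0905, 0.18, 0.262 and 0.106), that of Gab1 also without K5-IKKbeta 2 (0.0929) and that of Nras without K5-IKKbeta 1 (0.122), while Braf passed in all 4 such fits.

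Genes that make, trim or carry heparan sulfate, which FGFs need to bind their receptors, were called higher for 9 of 21 tested and lower for 1. These are 42.9% higher, beside 23.4% of all tested genes, and 4.76% lower, beside 10.6%. The share called higher was lower without either wild type array, as it also was for the basal epidermis and dermal fibroblast lists. The share over all tested genes in such fits is not given here. Differences moved less: with each array left out Ext1 was at 0.38 to 0.56 and Extl3 at 0.39 to 0.53. Their median difference was 0.34, beside 0.09 over all tested genes. Gpc3, a proteoglycan anchored in the cell membrane, read 9.73 and 9.83 in K5-IKKbeta pools, against 8.53 and 8.75 in wild type pools, a 2.20-fold rise (limma adjusted p = 0.000949). The sulfotransferase Hs6st2 rose by 1.07 (adjusted p = 0.00468) and the sulfatase Sulf1, which removes sulfate groups, by 0.64 (adjusted p = 0.00466). Hs6st2 read 6.98 and 7.46 in K5-IKKbeta pools, against 6.14 and 6.16 in wild type pools. Only its transgenic values lay above the filter of 6.33, so it was tested through the group in which it is higher. Syndecan Sdc1, the main heparan sulfate proteoglycan of keratinocytes, read 11.92 and 11.84 in K5-IKKbeta pools, against 12.69 and 12.66 in wild type pools, and fell by 0.80 on the log2 scale (adjusted p = 0.00171). These 4 genes also passed with each array left out, and the other 6 (Ext1, Ext2, Extl3, Gpc1, Gpc6 and Sdc3) were lost in 2 to 4 of the 4 such fits.

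**Figure D3:**
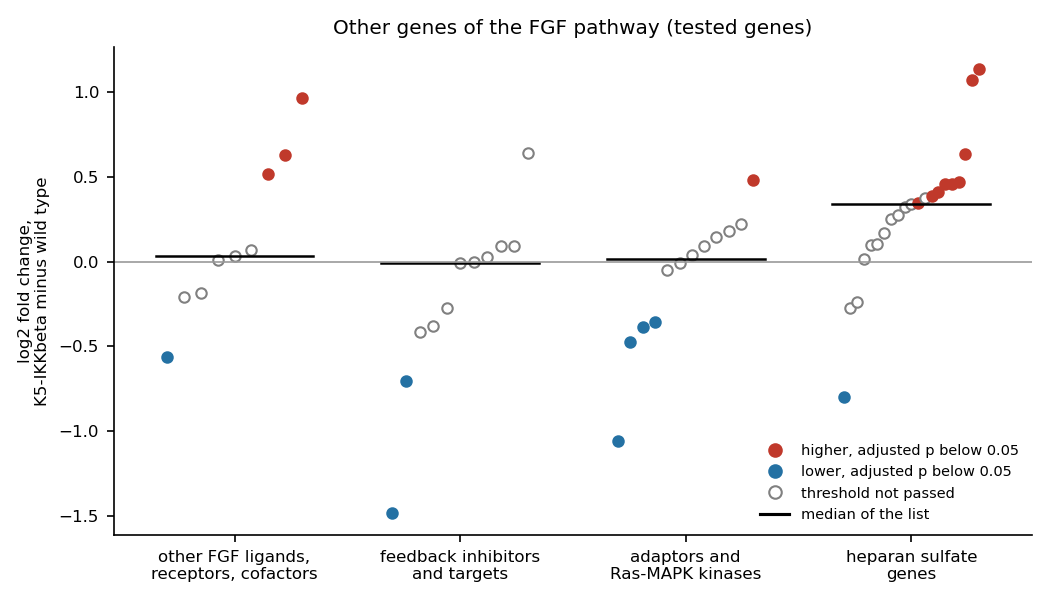
Log2 fold change (y axis, K5-IKKbeta minus wild type) of the tested genes in 4 lists of other FGF pathway genes, 1 point per gene in order of value; filled points passed the adjusted threshold over all tested genes and black lines are list medians. The median of the heparan sulfate list is 0.34 and those of the other lists lie between -0.01 and 0.03.

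Many markers of follicle parts and of other cell types also differed between the genotypes. Of all tested genes 10.6% were called lower and 23.4% higher. Mean log2 expression over 11 hair shaft keratins was 7.55 and 7.89 in K5-IKKbeta pools, against 12.80 and 12.84 in wild type pools, and all 11 were called lower by limma. The 8 inner root sheath genes had means of 10.50 and 11.13 in K5-IKKbeta pools, against 13.68 and 13.68 in wild type pools, with all 8 lower. Of 7 hair matrix genes 6 were lower, the exception being the growth signal Shh (0.32, adjusted p = 0.099), and their means were 8.64 and 8.98 in K5-IKKbeta pools, against 10.24 and 10.38 in wild type pools. The part of these lists in the falls of Fgf5 and Fgf22 was not tested. No marker in these 3 lists was below the floor in both pools of either group.

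Several lists of other skin cells were higher in transgenic skin, where 23.4% of all tested genes were called higher and 10.6% lower. The 8 dermal fibroblast genes had means of 12.60 and 12.85 in K5-IKKbeta pools, against 12.13 and 12.00 in wild type pools, with 5 called higher, among them the receptor Pdgfra at 2.47-fold; 3 were called without wild type 1 and 2 without wild type 2. The 7 basal epidermis genes had means of 11.85 and 11.62 in K5-IKKbeta pools, against 11.32 and 11.27 in wild type pools, with 6 called higher. Leaving out either wild type array left 0 of these 7 called by limma, and leaving out K5-IKKbeta 1 left 2. The 8 genes of bulge and outer root sheath had means of 10.14 and 10.08 in K5-IKKbeta pools, against 9.50 and 9.56 in wild type pools. By limma 4 were called higher, led by Nfatc1, and 0 lower (1 at an unadjusted p under 0.05, Lgr5 at -0.31). The call of Lhx2, 1 of the 4, was lost without either wild type array. Of 8 dermal papilla genes, which mark the cells that make Fgf7 and Fgf10, 2 were called higher, Lepr and Vcan (adjusted p = 0.0668 for Vcan without wild type 1), and 0 lower by limma (1 at an unadjusted p under 0.05). The 6 tested leukocyte genes of 7 listed were all called higher (means of 10.08 and 10.07 in K5-IKKbeta pools, against 8.23 and 8.27 in wild type pools). Of these, Aif1 was above the filter on dim genes only with both K5-IKKbeta arrays in the fit. Its place among the 6 therefore rests on its high transgenic values, and Itgam was not tested. The part of these cells in the rises of Fgfr1, Fgfr2 and Fgfbp1 was not tested. None of the 9 tested proliferation genes was called (limma, 2 at an unadjusted p under 0.05), and 3 were higher when K5-IKKbeta 1 was left out.

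**Figure D4:**
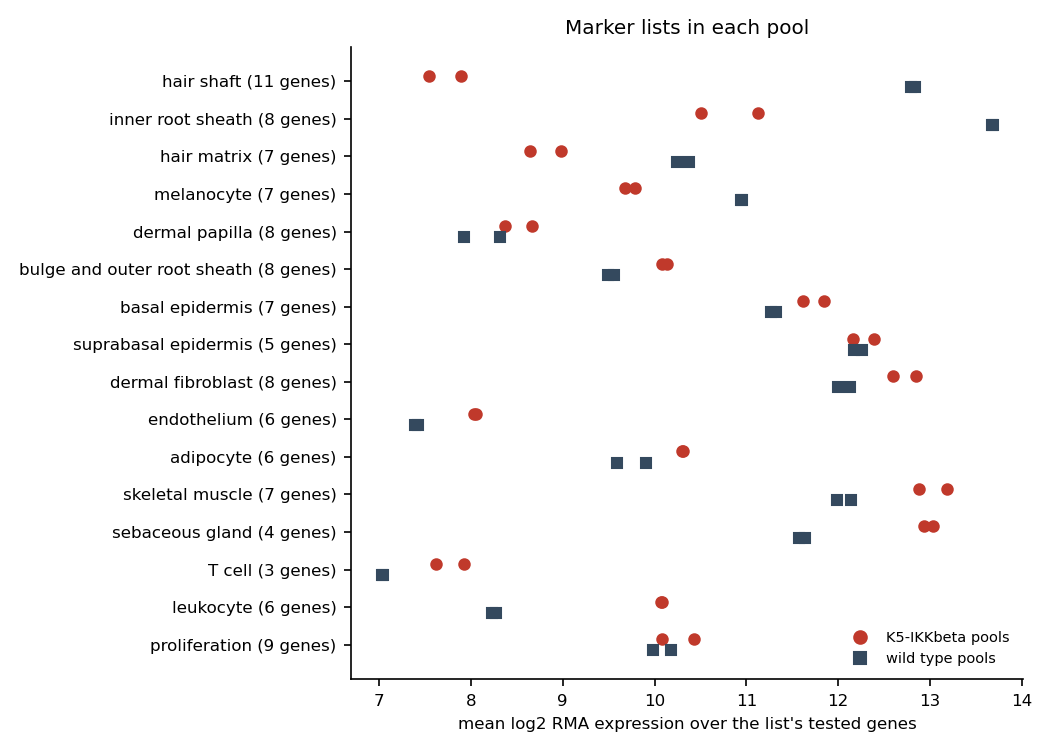
Mean log2 RMA expression over the tested genes of each marker list (x axis), with 1 point per pool, K5-IKKbeta pools as red circles above wild type pools as dark squares. Hair shaft, inner root sheath, hair matrix and melanocyte lists lie lower in both K5-IKKbeta pools, at 7.55 and 7.89 against 12.80 and 12.84 for the hair shaft.

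Regulators of the hair cycle outside the FGF family were mixed, with 30% of those tested called higher and 20% lower. The shares over all tested genes were 23.4% and 10.6%. Of 10 tested, 3 were called higher (Tgfb1, Wif1 and Esr1) and 2 lower (Bmp2 and Bmp4) by limma; Esr1 and Bmp4 were named after their values were seen, and leaving out wild type 2 ended the calls of both, as wild type 1 did for Esr1 (highest adjusted p = 0.0854 for Esr1 and 0.0765 for Bmp4). Without K5-IKKbeta 1, 5 of the 10 were called higher. Tgfb1, a growth inhibitor of follicle keratinocytes, read 9.53 and 9.59 in K5-IKKbeta pools, against 8.54 and 8.49 in wild type pools (adjusted p = 0.000656). Wif1, an inhibitor of Wnt ligands, rose 1.88-fold (adjusted p = 0.0249, and 0.13 without wild type 1). Bmp2, a signal of differentiating follicle cells, fell by 0.74 on the log2 scale (adjusted p = 0.00237).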

How the data were processed

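Total RNA of back skin was purified with Trizol and columns and converted to biotin-labelled cRNA, per the labels' protocols. The authors deposited expression values per probe set for which the submitters' processing notes name RMA, with no version, settings or log base. As usually run, RMA corrects background, normalizes by quantiles, summarizes probes and returns log2 values. The deposited values were taken as log2 from their range and used without further normalization. Batches are not recorded in the labels, and precision is limited by having 4 arrays.

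Probe sets were named from the platform annotation, and symbols were checked by gene identifier against the RefSeq gene table of GRCm38.p6, used for names only (34958 probe sets had 1 symbol, 932 several and 9211 none). A 2-group model in limma 3.58.1 (R 4.3.3, moderated, two-sided) was fitted to all 45101 probe sets. It was also fitted to 13074 of 18194 genes, each with its probe set of highest mean over the 4 arrays, kept above the 40th percentile of probe set means (6.33). Benjamini-Hochberg adjustment ran over the whole table of each fit, with a threshold of 0.05. Folds are 2 to the power of the absolute difference, or bounds against the 25th percentile of each array where both pools of the dimmer group lie below it. RMA compresses large differences.

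The members, gene lists and rules were chosen with earlier results of these data known. Named were all members; from each FGF pathway list up to 4 called genes with the largest difference (2 with the smallest p where none was called); from each marker list up to 3; Ikbkb; and the 3 tested genes nearest to the members with the largest called rise and fall among tested genes (Fgf5 was not tested there). Names outside this rule are given as examples of counts or as not called.

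The procedure was tested on simulated data with planted changes. At 1.5-fold it called 5 of 67 at gene level and 1 of 67 at probe set level. At 2-fold it called 54 and 23 of 67, and at 4-fold 66 and 65 of 66. Small changes were thus mostly missed there. The planted changes were far fewer than the calls in these data, so these shares do not carry over directly. Alternatives covered the filter, the probe set chosen, normalization, moderation, treat, a replicate block and each array left out.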

Additional observations from a re-analysis of the deposited data

How the results depend on the processing

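The count of called member probe sets (8 of 17) was 6 to 11 under every alternative except no moderation across genes, and 6 to 9 with each array left out. Without moderation, with 2 residual degrees of freedom per feature, limma's ordinary variances called 0 of the 17 probe sets (8 at an unadjusted p under 0.05), 0 of the 7 tested members (5) and 0 of the 53 tested pathway genes (15). Of the tested members, 6 were called, 3 to 6 with each array left out, the 3 being without wild type 2. The fits that gave 6, each without a K5-IKKbeta array, tested 8 members in place of 7, because Fgf5 then lay above the filter on dim genes. Fgfr3 was lost in those fits, so their 6 is not the same set as in the main fit. Of the pathway genes, 21 were called, 8 to 20 with each array left out (8 without wild type 2 and 9 without wild type 1) and 7 when tested against a 1.2-fold change. With shared probe sets left out, Fgfr1 (0.23, adjusted p = 0.20) and Fgfr2 (0.01, adjusted p = 0.97) were not called, and Fgf22 was called at -0.51 in place of -1.75. The shares called over all probe sets and over all tested genes under each alternative are not given here. Whether the members kept an excess over them was therefore not shown. For the brightest probe set of each member no alternative turned the direction. The labels number the arrays 1 and 2 in both groups; differences between arrays 1 and 2 correlated between the groups at 0.25 across probe sets, and with 2 pairs these numbers are not shown to pair the samples. With the replicate block, 10 of 17 probe sets, 6 of 7 members and 22 of 53 pathway genes were called. With 2 arrays per group, dim probe sets such as those of Fgf10 and the low values of Fgf5 lie near background, where differences are compressed.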

Other observations

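Other marker lists also differed between the genotypes. Over all tested genes 23.4% were called higher and 10.6% lower. The 7 melanocyte genes were all called lower by limma (means of 9.68 and 9.78 in K5-IKKbeta pools, against 10.94 and 10.95 in wild type pools). Of 7 skeletal muscle genes 6 were called higher (means of 13.18 and 12.88 in K5-IKKbeta pools, against 12.14 and 11.99 in wild type pools), as were 4 of 4 sebaceous gland genes, 4 of 6 endothelial genes and 3 of 6 adipocyte genes, of which leaving out wild type 2 left 1 called. Suprabasal epidermis genes were split, with 3 higher and 2 lower. Of 3 tested T cell genes, which mark a lineage whose epidermal cells are known to make Fgf7, 2 were called higher, Cd3g and Cd3d (adjusted p = 0.078 for Cd3d when wild type 2 was left out).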
